A study of Caenorhabditis elegans with 2 samples.

Results

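The genes described here encode the proteins of the mitochondrial ribosome of Caenorhabditis elegans, and the readout is the signal of the transcription factor fusion ets-5::GFP near their start sites. They were taken by name: every protein-coding gene whose name starts with mrpl-, for the large subunit, or mrps-, for the small subunit. The rule found 70 genes, 41 mrpl and 29 mrps, among 19973 protein-coding genes on the nuclear chromosomes. Chromatin immunoprecipitation with sequencing was done in 1 group only, with 2 biological replicates of 1 technical replicate each and no other genotype, stage or treatment. The larvae were whole L1 animals of strain OP809, aged 6 hours and held without food after bleaching. They carry the transgene wgIs809, a fosmid copy of ets-5 fused to TY1, EGFP and 3xFLAG, marked with unc-119(+), in an unc-119(tm4063) background, so the rescued mutation and the transgene are shared by both replicates. The precipitation used anti-GFP per the sample description, while the antibody label names ets-5. A whole-animal sample mixes all cell types, so a signal cannot be placed in any of them, and binding by the fusion protein is not a measurement of the endogenous protein.

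ETS factors bind DNA through a winged helix-turn-helix domain that prefers sites with a GGAA core, and ets-5 is known in C. elegans for its role in sensory neurons. The mitochondrial ribosome makes the few proteins that the mitochondrial genome encodes, all of them subunits of the respiratory chain and ATP synthase. Its RNAs come from the mitochondrial genome and its proteins from nuclear genes. Many of these proteins have bacterial counterparts, while others are found only in mitochondrial ribosomes. In C. elegans, lowering the dose of mrps-5 by RNA interference is known to lengthen life and to induce the mitochondrial unfolded protein response.

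For each gene, the value used is the highest signal among the authors' regions with a summit at most 1000 bp from any start site that the annotation gives that gene. The signal is the peak caller's own value for a region. The sources used here do not give its scale, so it is read only within a list. The series list that ranks all candidate regions was made over both replicates and holds 126002 regions, and the ranked lists of replicate 1 and replicate 2 hold 108309 and 92443. A gene's percentile is its place among all protein-coding genes with a region in the same list. The value of a gene in a replicate can come from another place in the window than its series region. Each region of a ranked list also has a global IDR, the irreproducible discovery rate, which is low where its rank repeats between the peak sets compared. The sources used here do not say which sets were compared for each list. The series regions of mrpl-37 and mrpl-48 have an IDR though no replicate 1 region overlaps them. A low IDR is therefore not read here as a repeat between the biological replicates. With 1 group and 2 replicates no test between groups exists, and the replicate values stand in place of an error. Read depths are unknown, because only region lists were used, and no control sample was analysed here.

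The following sequences are 201 bases of the ce11 assembly, written 5′ to 3′ on its plus strand and centred on the summit of the highest series region of a gene. Capitals mark the ETS core GGAA, the ETS word CCGGAA, and CGCGCA, a word counted beside them, each on either strand. The first 4 belong to genes with a global IDR under 0.05 and among the highest signals of the set: mrpl-11 at chrIII:8717932-8718132, mrps-9 at chrIII:8266163-8266363, mrps-26 at chrIII:5234064-5234264 and mrpl-55 at chrIV:444371-444571. The mrps-7 region at chrIV:14767819-14768019 also has an IDR under 0.05 and holds CGCGCA. The mrpl-39 region at chrV:1821434-1821634 lies nearest to its own start site among the 10 highest members and holds CCGGAA. The mrps-33 region at chrIV:8739573-8739773 had the lowest signal of the set and is shown for contrast.
mrpl-11: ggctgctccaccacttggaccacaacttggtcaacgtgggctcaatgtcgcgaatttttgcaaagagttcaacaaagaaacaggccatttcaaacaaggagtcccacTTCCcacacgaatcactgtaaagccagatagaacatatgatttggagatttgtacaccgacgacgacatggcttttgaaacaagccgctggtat
mrps-9: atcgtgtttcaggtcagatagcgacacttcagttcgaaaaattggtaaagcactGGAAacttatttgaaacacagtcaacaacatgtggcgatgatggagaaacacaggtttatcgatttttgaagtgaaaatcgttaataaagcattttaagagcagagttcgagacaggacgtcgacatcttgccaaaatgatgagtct
mrps-26: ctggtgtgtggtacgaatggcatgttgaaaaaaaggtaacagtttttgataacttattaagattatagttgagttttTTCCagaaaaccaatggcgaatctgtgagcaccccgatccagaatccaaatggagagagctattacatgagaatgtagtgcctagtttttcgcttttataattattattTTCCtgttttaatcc
mrpl-55: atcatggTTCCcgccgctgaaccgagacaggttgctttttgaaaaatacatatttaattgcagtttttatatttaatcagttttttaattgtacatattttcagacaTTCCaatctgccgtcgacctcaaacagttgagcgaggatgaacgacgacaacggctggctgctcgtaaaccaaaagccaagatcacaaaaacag
mrps-7: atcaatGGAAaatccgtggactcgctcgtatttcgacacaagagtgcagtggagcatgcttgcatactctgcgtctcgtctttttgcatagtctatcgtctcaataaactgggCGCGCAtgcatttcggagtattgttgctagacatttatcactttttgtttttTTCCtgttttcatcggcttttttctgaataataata
mrpl-39: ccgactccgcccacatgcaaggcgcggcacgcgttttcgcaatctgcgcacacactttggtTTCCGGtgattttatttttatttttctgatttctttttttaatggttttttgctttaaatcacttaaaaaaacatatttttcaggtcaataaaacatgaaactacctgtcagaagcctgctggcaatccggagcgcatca
mrps-33: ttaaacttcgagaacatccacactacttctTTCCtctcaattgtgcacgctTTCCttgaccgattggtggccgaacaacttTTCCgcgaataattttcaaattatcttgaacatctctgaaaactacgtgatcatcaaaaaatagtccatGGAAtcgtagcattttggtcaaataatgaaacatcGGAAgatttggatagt
A single GGAA core stands in the mrpl-11, mrps-9 and mrpl-39 windows, while the mrps-33 window holds 5. The number of cores in these windows does not follow the order of the signals.

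No mitochondrial ribosomal protein gene had a region that passed the authors' reproducibility threshold. Among the 250 regions of the main passing list, 0 had a summit within 1000 bp of a start site of the 70 genes, against 148 of all protein-coding genes, or 0.741%. The conservative passing list of 177 regions also gave 0 members, against 0.506% of all genes. At such shares a set of 70 genes would hold fewer than 1, so a count of 0 lies near the background. The nearest passing regions were beside the set and not in it. One on chromosome V, with a signal of 90.2, had its summit 1013 bp from the start of mrps-28, just outside the window, and 804 bp downstream of the start of its neighbour Y43F8C.7. The highest region of mrps-28 itself had a signal of 39.1. The next nearest lay 3496 bp from mrps-7, with a signal of 79.9.

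At a looser limit, a global IDR under 0.05, 5 of the 70 genes were reached, or 7.14%, against 5.14% of all protein-coding genes. They were mrps-26 with an IDR of 0.0158, mrpl-11 with 0.0199, mrps-9 with 0.0200, mrpl-55 with 0.0228 and mrps-7 with 0.0461. The lowest score on the passing list, 830, stands for a global IDR of 0.0100, and mrps-26 came closest to it with a score of 748. Just outside the looser limit stood mrps-17 with an IDR of 0.0535. In the conservative ranked list the limit was met at 6 of the 70 genes, against 877 of all 19973. There mrps-17 and mrps-25 were under it and mrps-7 was not, so membership near the limit depends on the list. In the list of either replicate alone, 0 members had an IDR under 0.05, against 0.396% of all genes in replicate 1 and 0.310% in replicate 2, so these counts too lie near the background.

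As a set, the genes lay somewhat above the middle of the genome in the series list. A region was present for 69 of 70 members (98.6%), against 93.3% of all protein-coding genes. The median signal was 41.4 over the members and 37.0 over all genes, and the quartiles were 37.0 and 48.9 over the members, against 28.9 and 46.1 over all genes. The median member stood at percentile 63.0 in the series list, 62.0 in replicate 1 and 62.3 in replicate 2. Above the all-gene median were 51 members in the series list (72.9%, against 46.6% of all genes, counting genes with no region as not above). The same count was 39 in replicate 1 (55.7% against 45.8%) and 44 in replicate 2 (62.9% against 43.7%). In both replicates 25 members were above it, or 35.7%, against 25.8% of all genes. At the upper end the set lay nearer to the background. The top 10% of the series list held 8 members, or 11.4%, against 9.33% of all genes.

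**Figure D1:**
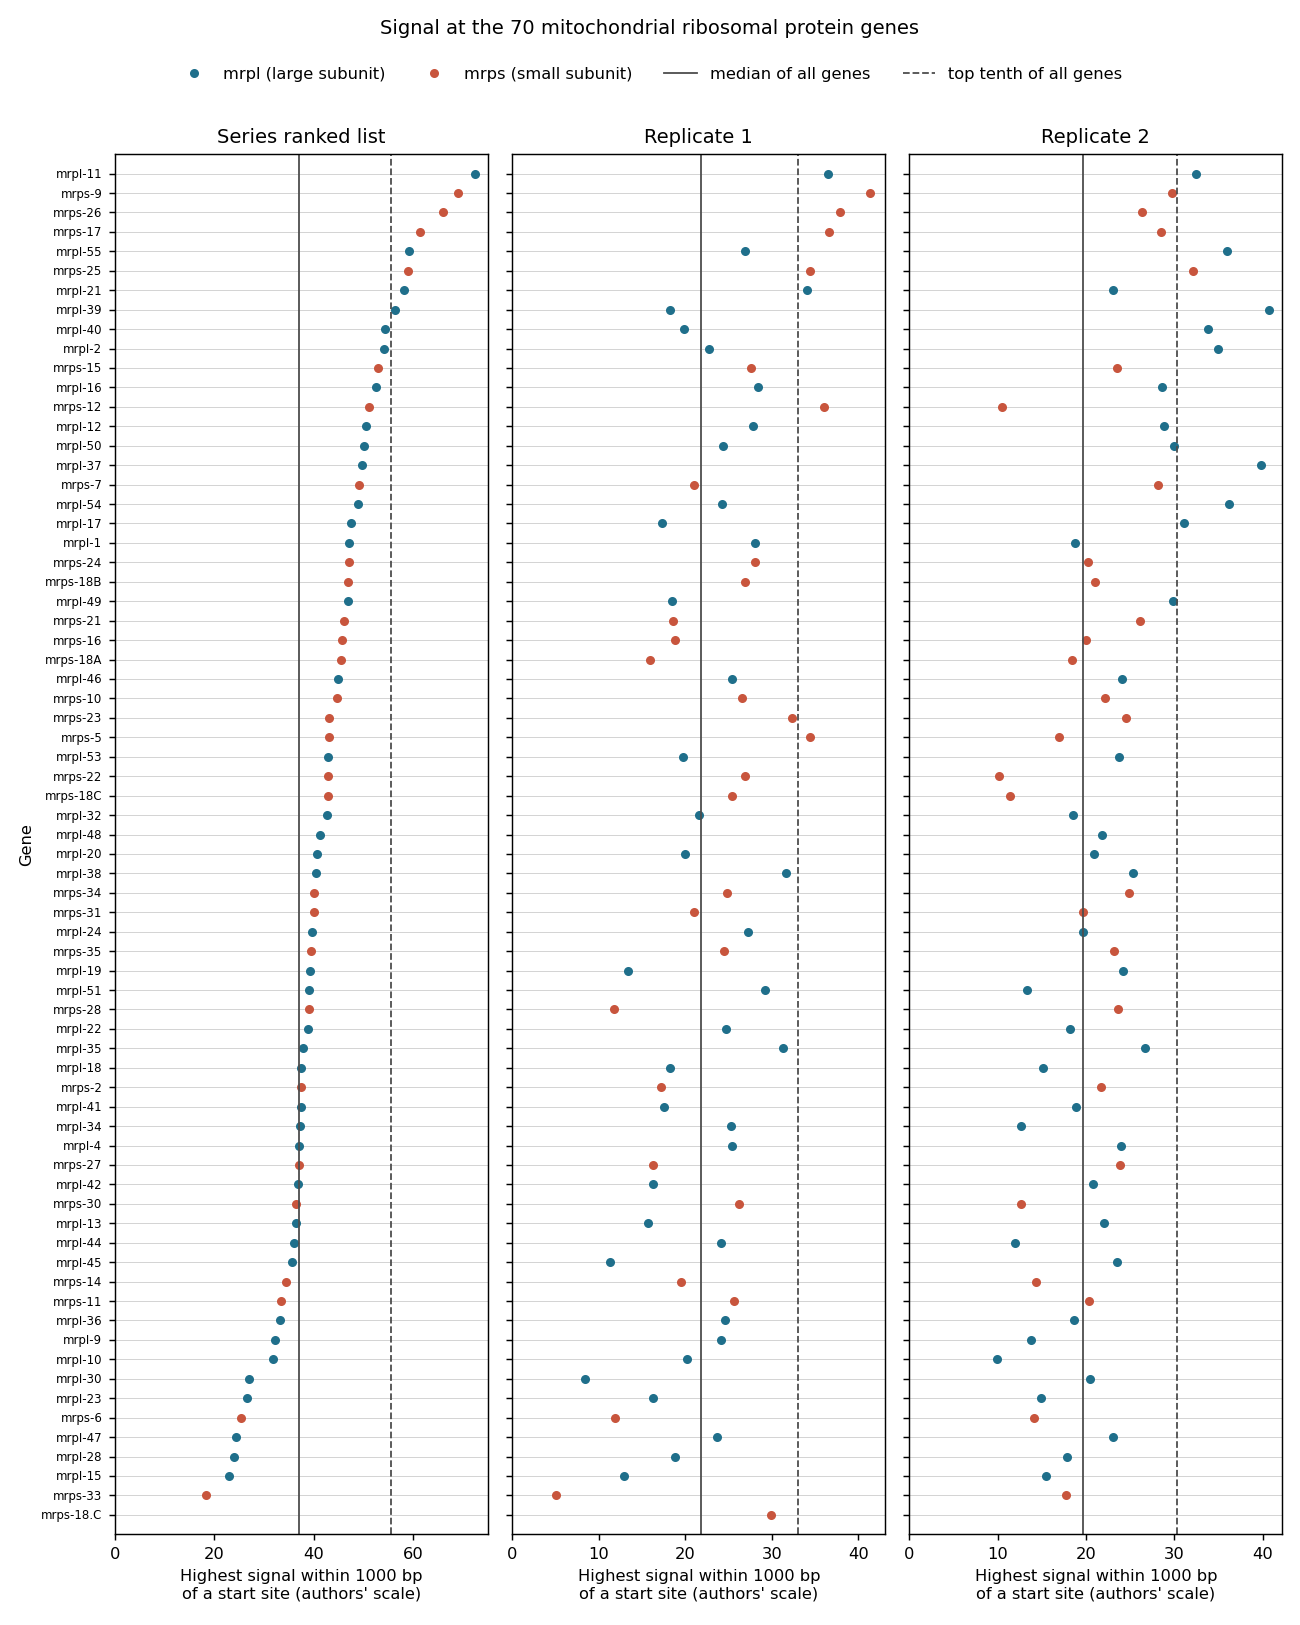
Highest signal of each mitochondrial ribosomal protein gene in the series list, replicate 1 and replicate 2 (one panel per list, horizontal axis in the signal units of that list; one point per gene). The solid line is the median of all genes and the dashed line the lower limit of their top 10%. Genes are ordered by the series value, from mrpl-11 at 72.5 down to mrps-33 at 18.4. The order is not kept in the replicate panels, and mrps-18.C, mrpl-37 and mrpl-48 lack a point where no region was listed.

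Among large subunit genes the highest was mrpl-11, whose protein forms the base of the stalk that recruits translation factors in bacterial ribosomes. Its gene lies at chrIII:8717644-8718567 on the plus strand, and the summit fell in its own coding exon 388 bp downstream of the start. The signal was 72.5 in the series list, the rank 502 of all regions, with 36.5 in replicate 1 and 32.4 in replicate 2. It was in the top 10% of each list, at percentiles 98.5, 94.9 and 93.7. The genes for other stalk proteins were lower. The gene for the stalk scaffold, mrpl-10, had 31.9 in the series list, with 20.2 in replicate 1 and 9.96 in replicate 2. No replicate 2 region overlapped the series region of mrpl-10. The gene for the stalk tip, mrpl-12, had 50.6, with 27.8 and 28.9 in the replicates. Its replicate 2 value came from another place, and the replicate 2 region that overlaps the series region had 23.4. Opposite the stalk in bacterial ribosomes stands L1, and mrpl-1 had 47.2, with 28.0 in replicate 1 and 18.7 in replicate 2. That mrpl-1 region lies in an intron of mrps-24 and is also the highest region of mrps-24, so these members share 1 value.

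Near the bacterial peptidyl transferase centre lie the counterparts of mrpl-2 and mrpl-16. The signal of mrpl-2 was 54.3, with 22.8 in replicate 1 and 35.0 in replicate 2. Its replicate 2 summit lay 3343 bp from that of replicate 1. The replicate 2 region that overlaps the mrpl-2 series region had 27.4. The signal of mrpl-16 was 52.5, with 28.4 and 28.6 in the replicates. Its replicate 2 value also came from another place, and the overlapping replicate 2 region had 24.4. Among counterparts of proteins that line the bacterial peptide tunnel or surround its exit, the series signals were spread around the set's median of 41.4. They were 47.4 for mrpl-17, 42.7 for mrpl-32, 39.7 for mrpl-24, 38.96 for mrpl-22, 37.1 for mrpl-4 and 26.6 for mrpl-23. Of these 8 genes, mrpl-2 and mrpl-17 were in the top 10% of replicate 2, and none was in that of replicate 1 or the series list. The place of mrpl-2 there rests on a region apart from its series region. These genes were picked for their role with their values known, and stand for no count over a role.

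Other large subunit genes have human counterparts found in mitochondrial but not bacterial ribosomes, and those named here differed in which replicate placed them higher. At mrpl-39 the series signal was 56.5, the lowest member in the top 10%, with 18.2 in replicate 1 and 40.7 in replicate 2, which was the highest value of any member in replicate 2. Its summit lay 45 bp upstream of the start, between genes, with gly-7 also in reach. For mrpl-40, just below 55.6, the limit of the top 10%, the series signal was 54.5, with 19.9 in replicate 1 and 33.8 in replicate 2. At mrpl-37 the series signal was 49.7 and replicate 2 had 39.8, while no region of replicate 1 lay in the window, the nearest being 1226 bp away. The mrpl-55 signal was 59.3 in an intron of the gene, with 26.9 in replicate 1 and 35.95 in replicate 2. The mrpl-54 signal was 48.9, with 24.2 in replicate 1 and 36.2 in replicate 2. At mrpl-48 the series signal was 41.4 and replicate 2 had 21.9, with no replicate 1 region nearer than 5719 bp. The opposite order was seen at mrpl-51, at percentile 81.1 in replicate 1 and 16.4 in replicate 2, at mrpl-44, at 60.9 and 11.1, and at mrpl-38, at 87.2 and 76.8. One further large subunit gene of the top 10%, mrpl-21, had 58.2 in the series list, with 34.1 in replicate 1 and 23.0 in replicate 2, and its summit lay in a coding exon of zhit-2.

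Among small subunit genes the highest was mrps-9, whose bacterial counterpart reaches with its tail towards the transfer RNA in the decoding site. It had 69.1 in the series list, with 41.3 in replicate 1, the highest value of any member there, and 29.8 in replicate 2. The summit fell in its own coding exon, 201 bp downstream of the start. The series signal of mrps-26, a protein of mitochondrial ribosomes only, was 66.1, with 37.9 in replicate 1 and 26.4 in replicate 2, at a summit in a coding exon of prmt-5. For mrps-17, an RNA-binding protein of the small subunit in bacteria, the signal was 61.5, with 36.6 in replicate 1 and 28.5 in replicate 2, at a summit in a coding exon of txdc-9. At mrps-25 the signal was 59.0, with 34.4 and 32.1 in the replicates, and with mrpl-11 it was 1 of the 2 members in the top 10% of both replicates. The highest replicate 2 region of mrps-25 lay at another place, and the replicate 2 region that overlaps the series region had 20.7. The members in the top 10% of both replicates were 2.86% of the set, against 2.26% of all genes.

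The gene known from work on lifespan, mrps-5, was in the upper middle of the set. Its series signal was 43.0, at percentile 67.3, with 34.5 in replicate 1 and 16.9 in replicate 2. The summit fell in its own coding exon, 502 bp downstream of the start. The values put mrps-5 in the top 10% of replicate 1 and at percentile 34.3 in replicate 2. For mrps-12, the decoding-site protein in which bacterial streptomycin resistance arises, the series signal was 51.2, with 36.1 in replicate 1 and 10.5 in replicate 2. For mrps-7, a protein of the bacterial small subunit head, it was 49.1, with 20.98 in replicate 1 and 28.1 in replicate 2. The mrps-15 signal was 53.0, with 27.5 in replicate 1 and 23.5 in replicate 2.

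At the lower end, mrps-33 had 18.4 in the series list, with 5.01 in replicate 1 and 17.7 in replicate 2. Its replicate 1 value stood at percentile 0.623. The next lowest in the series list were mrpl-15 with 23.0, mrpl-28 with 24.0, mrpl-47 with 24.5 and mrps-6 with 25.5. The replicate values of mrpl-47 were not low: 23.7 and 23.1, at percentiles 59.2 and 67.3. They came from summits 940 bp apart, and no replicate 2 region overlapped the mrpl-47 series region. The only member without a series region was mrps-18.C, whose nearest series summit lay 2598 bp away. It had a value of 29.9 in replicate 1 and no region in the replicate 2 window, where the nearest was 1518 bp away. The annotation also lists mrps-18A, mrps-18B and mrps-18C under names of their own, and their series signals were 45.6, 47.0 and 42.9. The mrps-18A summit lay at the edge of the window, exactly 1000 bp from the start.

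**Figure D2:**
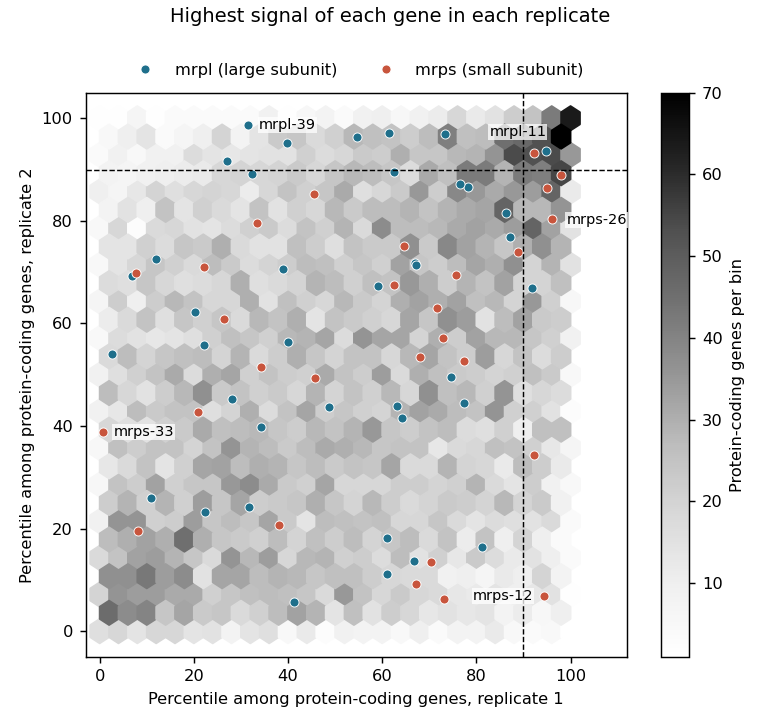
Percentile of each gene's highest signal among protein-coding genes in replicate 1 (horizontal axis) and replicate 2 (vertical axis), for the 67 members with a region in both (points; blue for mrpl, red for mrps) over all 16465 such genes (grey bins, darker for more genes). Dashed lines mark percentile 90. Only mrpl-11 and mrps-25 lie beyond both lines, and mrps-12 and mrpl-39 lie near opposite corners.

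Which members stood high differed between the replicates. The share in the top 10% of both, 2.86%, was near the 2.26% of all genes. The top 10% of replicate 1 held 8 members, or 11.4%, against 9.16% of all genes, and that of replicate 2 held 9, or 12.9%, against 8.74%. In replicate 1 the 5 highest were mrps-9, mrps-26, mrps-17, mrpl-11 and mrps-12. In replicate 2 they were mrpl-39, mrpl-37, mrpl-54, mrpl-55 and mrpl-2, with mrpl-2 there through a region apart from its series region. The percentiles of mrps-12 were 94.4 in replicate 1 and 6.81 in replicate 2, the widest gap of the set. Those of mrpl-39 were 31.6 and 98.7. Those of mrps-22 were 73.0 and 6.19, with signals of 26.9 and 10.2, and no replicate 2 region overlapped its series region. A gap over 50 percentile points was found at 15 of 67 members (22.4%), against 16.5% of all genes with both values. Across the 67 members the Spearman correlation of the replicate signals was 0.15, and the Pearson correlation of their log2 values 0.11. Over 16465 genes both were 0.28. These correlations run across genes that share the same pair of libraries, and are given as a description.

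In position, the highest series region was overlapped by some region of each replicate at 60 of 70 members (85.7%), against 67.0% of all genes. At 28 members (40%) the highest summits of the series list and of both replicates lay within 150 bp of each other, against 28.4% of all genes. Ranked lists this long include many weak regions, so an overlap says only that a candidate region was listed in each replicate.

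The order of the subunits turned round between the replicates. In the series list the 41 large subunit genes had a median signal of 39.7, at percentile 58.1, and the 29 small subunit genes had 43.1, at percentile 67.5. In replicate 1 the median percentiles were 59.2 for large and 68.0 for small subunit genes. The top 10% held 2 and 6 of them (4.88% and 20.7%, against 9.16% of all genes). In replicate 2 the median percentiles were 67.0 for large and 59.0 for small subunit genes. The top 10% held 8 and 1 of them (19.5% and 3.45%, against 8.74% of all genes). No difference between the subunits held in both replicates. Members numbered within the bacterial range, up to 36 in the large and 21 in the small subunit, had a median of 41.7, and those numbered above it had 41.4. In replicate 1 the median percentiles were 63.2 within the range and 61.5 above it. The top 10% held 6 of 41 and 2 of 29 genes (14.6% and 6.90%, against 9.16% of all genes). In replicate 2 the median percentiles were 53.8 within the range and 70.7 above it. The top 10% held 3 and 6 genes (7.32% and 20.7%, against 8.74% of all genes). That number is only a rough guide to which proteins bacteria share.

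The highest summits of the members were not gathered at the starts of the genes, and their distances and sides lay near those of all genes. The highest summit lay within 500 bp of a start site at 33 of 69 members (47.8%), against 53.0% of all genes. The median distance was 519 bp for the members and 471 bp for all genes. Downstream of the start were 39 summits and upstream 30, so 56.5% were downstream, against 56.1% over all genes. The summit fell in a coding exon at 46 members, of the gene itself at 28 and of another gene at 18. It fell in an intron at 11, between genes at 8, in a 3′ UTR at 3 and in a 5′ UTR at 1. These places were not counted over all genes, so they are not shown to be particular to the set.

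**Figure D3:**
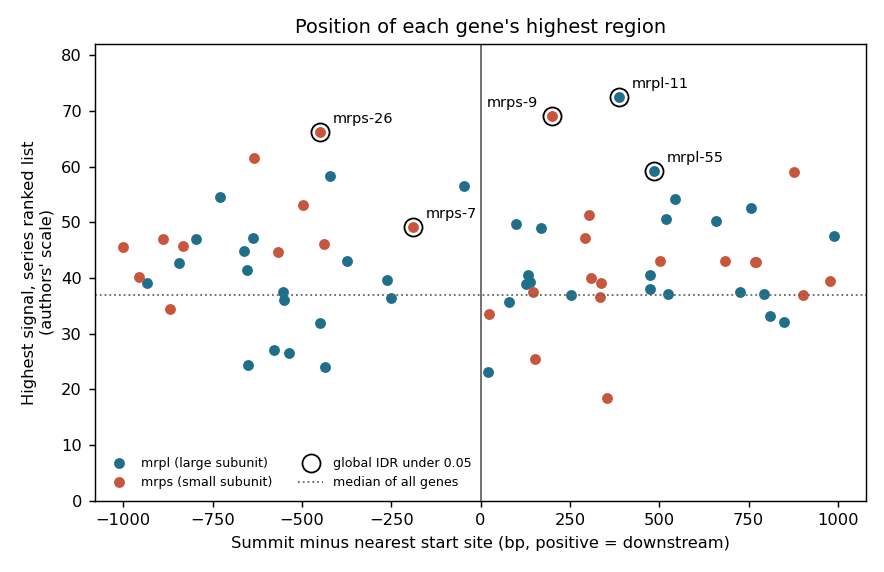
Highest series signal of each of 69 mitochondrial ribosomal protein genes (vertical axis, authors' signal) against the distance of the summit from the nearest start site of the gene (horizontal axis, bp, negative upstream). Rings mark the 5 genes with a global IDR under 0.05, and the dotted line the all-gene median of 37.0. Points spread over the whole window, with mrpl-11 and mrps-9 downstream of the start and mrps-26 upstream.

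Many of these genes stand close to a neighbour. A start site of another protein-coding gene lay within 1000 bp of the highest summit at 38 of 69 members (55.1%), against 25.6% of all genes. For those members the region cannot be given to one gene. A summit with no such start site in reach can also lie inside another gene. The mrps-26 summit lay in a coding exon of prmt-5, and the mrpl-32 summit in one of rpn-3. Regions like these cannot be given to the member alone either. The medians below divide the members by start sites in reach only, those with another gene's start site first. The median signal was 43.9 for the 38 members, against 39.5 for the other 31, and over all genes the same medians were 37.9 and 36.7. One example is mrpl-49, whose region with signal 46.9 lies in a coding exon of rpl-28, a cytosolic ribosomal protein gene with the same highest region. In the annotation 61 of 70 members (87.1%) have a single start site, against 72.6% of all genes. The mean number of regions in the window was 2.83 per member and 3.04 per gene over all genes.

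Sequence within 100 bp of the summit was read for the 68 distinct regions of the members and for the 16809 distinct regions of all genes. The GC content was 39.5% ± 5.57 over the members' regions and 39.4% ± 6.96 over all (SD over regions). The core GGAA on either strand, which includes every CCGGAA, was in 63 of 68 regions (92.6%), against 88.2% of all. The longer word CCGGAA was in 6 of 68 (8.82%), against 9.23%. CGCGCA, which contains neither of them, was in 6 of 68 (8.82%), against 3.19% of all, and this difference was not tested. Those 6 were the regions of mrpl-28, mrpl-36, mrpl-38, mrpl-40, mrps-7 and mrps-30. Their signals ran over most of the range of the set, with mrpl-40 at 54.5 and mrpl-28 at 24.0. A match to a word is a description and does not mark a bound site.

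The members are unevenly placed on the chromosomes. Chromosome III holds 22 of 70 (31.4%), against 13.2% of all protein-coding genes, and the X chromosome holds 0, against 13.7%. Chromosomes I, II, IV and V hold 15, 12, 11 and 10. Of the 8 members in the top 10% of the series list, 5 are on chromosome III, 2 on IV and 1 on V. On chromosome III this is 22.7% of the members, against 12.3% of all genes there. The median series signal was 43.0 for the members on chromosome III and 38.7 for all genes there, and 37.0 for the members on chromosome I and 38.4 for all genes there. It was 42.9 for the members on chromosome II and 37.2 for all genes there, 47.2 and 37.7 on IV, and 40.5 and 35.6 on V. The members' median was thus above that of their chromosome on II, III, IV and V and below it on I.

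**Figure D4:**
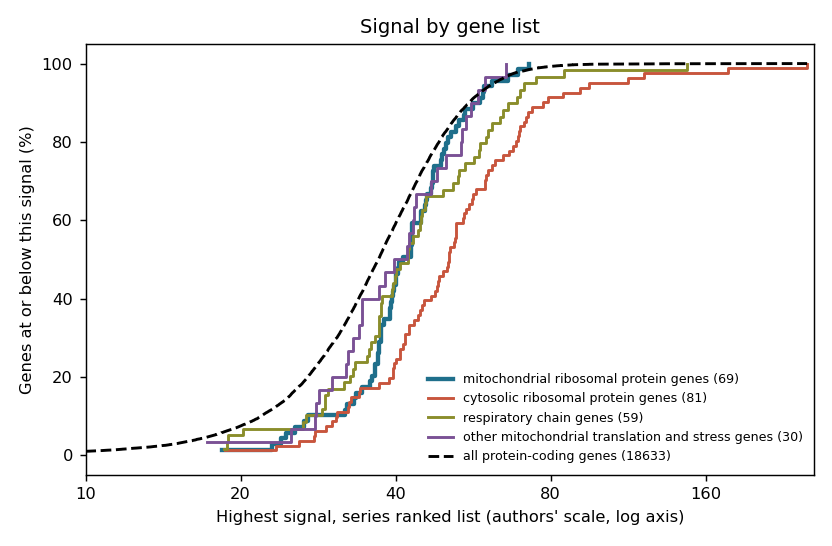
Cumulative share of genes (vertical axis, percent) by highest series signal (horizontal axis, authors' signal, log axis) for mitochondrial ribosomal protein genes, 3 other gene lists and all protein-coding genes with a region. The median of the mitochondrial ribosomal protein genes, 41.4, lies between those of the cytosolic ribosomal protein genes, 50.8, and of all genes, 37.0, and at high signals their line meets that of all genes.

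The mitochondrial ribosomal protein genes were lower than those of the cytosolic ribosome. Their median signal was 41.4, at percentile 63.0, and that of the 81 cytosolic genes 50.8, at percentile 83.9. In the top 10% were 8 of 70 mitochondrial (11.4%) and 30 of 81 cytosolic genes (37.0%), against 9.33% of all genes. A region of the main passing list was in reach of 0 of 70 mitochondrial and 8 of 81 cytosolic genes, against 0.741% of all genes. The top 10% of both replicates held 2 mitochondrial (2.86%) and 15 cytosolic genes (18.5%), against 2.26% of all genes. The Spearman correlation between replicates was 0.15 over the mitochondrial and 0.41 over the cytosolic genes. A start site of another gene was in reach at 55.1% of the mitochondrial and 69.1% of the cytosolic genes.

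Genes that work with the mitochondrial ribosome had series medians close to that of its proteins. The median of 63 nuclear genes named for the respiratory chain and ATP synthase, many of whose partner subunits the mitochondrial ribosome makes, was 42.2, at percentile 65.3. Of these, 15 (23.8%) were in the top 10%, against 9.33% of all genes, and 2 of 63 had a passing region in reach, against 0.741%. The top 10% of replicate 1 held 12 of them (19.0%, against 9.16% of all genes). That of replicate 2 held 11 (17.5%, against 8.74%). In the top 10% of both replicates were 2 (3.17%), near the 2.26% of all genes. A list of 31 genes for mitochondrial translation, the mitochondrial genome and the mitochondrial stress response had a median of 40.8, at percentile 61.4, and median percentiles of 40.9 in replicate 1 and 46.9 in replicate 2. Of these 31 genes, 4 (12.9%) were in the top 10% of the series list, near the 9.33% of all genes. They were the DNA polymerase gene polg-1 with 65.6, the stress-response transcription factor gene atfs-1 with 59.5, the stress-response gene ubl-5 with 57.8 and the helicase gene twnk-1 with 55.9. No replicate 1 region lay in the windows of polg-1 and atfs-1, which had 26.4 and 38.3 in replicate 2. The genes for the mitochondrial chaperones, hsp-6 and hsp-60, had 54.7 and 48.2. The small subunit protein gene dap-3, whose name is outside the rule, had 28.0. The mitochondrial RNA polymerase gene rpom-1 had no series region in its window, and 0 of the 31 had a passing region, near the 0.741% of all genes.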

How the data were processed

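Chromatin immunoprecipitation with sequencing of 2 biological replicates (per the labels) was used as deposited region lists on ce11, whose chromosomes match WBcel235. The authors' signal (column 7), the score (125 times −log2 of the global IDR, at most 1000, tested on the lists) and the −log10 of the global IDR were taken as deposited. The sources used here do not give the aligner, peak caller or control handling, and depth is unknown. Start sites came from Ensembl release 115 and sequence from the RefSeq copy of WBcel235. Each gene took its highest region with a summit within 1000 bp, or none, in Python 3.11.15 with pandas 2.3.3 and numpy 2.4.6. The assignment was tested on simulated regions. No test was run: 1 group has no comparison, so counts stand beside all 19973 genes. Genes named were those with an IDR under 0.05, the 10 highest and 5 lowest, the 5 highest per replicate, those lacking a region, the 3 widest replicate gaps and mrps-5; others stand for a role in the ribosome and were chosen with their values known. The members and lists were chosen with earlier results of these data known. In the list of other mitochondrial genes, 31 of the listed names were found. Alternatives covered the window, list, start sites, cut-offs and each replicate alone.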

Additional observations from a re-analysis of the deposited data

How the results depend on the processing

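Of 67 alternative values, 45 were labelled the same, 21 moved and 1 reversed. The same meant within 1.5 times for counts and within 0.1 for correlations. For other values it meant within the SD of the values from each replicate alone. That SD was small for the median percentile, where all 9 alternatives moved. It was large for the subunit difference, so these totals do not measure stability on 1 scale. The median signal became 36.8 with a window of 500 bp, 44.2 with 2000 bp and 39.02 where a region counted only for the nearest start; each replicate alone gave 22.0 to 24.3, on its own scale. The median percentile became 64.7 at 500 bp, 54.2 at 2000 bp, 60.8 in the conservative list, 64.0 with any overlap, 60.2 with the nearest start, 66.5 with the outermost start site only, 64.5 with genes lacking a region ranked lowest, and 62.0 to 62.3 with each replicate alone. Members under the IDR limit were 0 with either replicate alone and 12 at a limit of 0.1 (17.1%, against 13.1% of all genes). The passing list reached 1 member at 2000 bp and 1 with any overlap. The share of all genes was not computed at these settings, so these counts cannot be set against a background. The top 5% held 3 members (4.29% against 4.67%) and the top 25% held 23 (32.9% against 23.3%). The large minus small subunit percentile, -9.33, ran between -8.87 and 7.96 with each replicate alone, reversing without replicate 1, and shrank to -2.67 at 500 bp and -1.98 at 2000 bp; these alternatives were chosen after seeing the data. The cause of these moves was not tested. No paired analysis was possible because there is only 1 group. Depth is unknown, so a missing region is not shown to be missing signal.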
